A study of Mus musculus with 2 samples.

Results

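The SR splicing factors are RNA-binding proteins with a domain rich in arginine and serine, and the 10 mouse genes Srsf1, Srsf2, Srsf3, Srsf4, Srsf5, Srsf6, Srsf7, Srsf9, Srsf10 and Srsf11 are described here in hippocampus. They were chosen by gene symbol, matched exactly in the deposited transcript tables. The rule used no measured value, although the genes were chosen with earlier results of these data known. They are 10 of 21951 protein-coding genes in those tables, and they hold 85 of 141767 annotated transcripts. Of the 85 transcripts, 29 are typed protein_coding in the annotation, 15 nonsense_mediated_decay, 26 retained_intron and 15 processed_transcript. The last 3 types, 56 transcripts in all, are called noncoding-typed below. The type is a statement of the annotation about the transcript's structure, and neither decay nor protein was measured.

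RNA came from hippocampus of female mice of the strain B6CASTF1/J, a first-generation cross between C57BL/6 and CAST, an inbred strain of wild origin, at 25 days of age. The labels call the tissue a layer of hippocampus, name no treatment, and give 1 group with biological replicates 1 and 2, each from 300 ng of total RNA with ERCC spike-in RNA added. The replicates have separate biosample entries and share a donor entry, so whether they come from different animals is not known. There is no second group, and the values below are levels in this tissue, their split among transcript types, and the difference between the 2 libraries, for which no test exists. Both libraries were quantified on the C57BL/6-based mm10 reference, and the alleles of the cross were not separated.

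SR proteins bind enhancer sequences in exons and recruit the spliceosome to nearby splice sites, and several of them shuttle to the cytoplasm and take part in mRNA export and translation. Their genes are known for limiting their own expression. High levels of an SR protein favour inclusion of a "poison" exon with an early stop codon, or retention of an intron, in the gene's own RNA, and such RNA is degraded by nonsense-mediated decay in the cytoplasm or kept in the nucleus. The conserved poison exons of mammalian SR genes are among the best-known cases of this feedback. Nonsense-mediated decay typically acts where a stop codon lies more than about 50 bases before the last exon junction.

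The sequences that define the poison exons of 6 members are shown because they tell the nonsense_mediated_decay transcripts of these genes from the leading coding ones. By TPM, that type was the smallest of the 3 noncoding types summed over the 10 genes, at 114 and 101 TPM in replicates 1 and 2. By estimated counts it was above processed_transcript, at 2396 and 2633 against 1263 and 1143. Each sequence runs from the first base of an exon that the gene's leading coding transcript skips. It ends at the stop codon annotated in the named transcript, and is given 5′ to 3′ on the gene's strand. The letters are those of the GENCODE M21 transcripts (mm10), and capitals mark the stop codon.
Srsf3-201: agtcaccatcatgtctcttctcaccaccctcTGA
Srsf6-201: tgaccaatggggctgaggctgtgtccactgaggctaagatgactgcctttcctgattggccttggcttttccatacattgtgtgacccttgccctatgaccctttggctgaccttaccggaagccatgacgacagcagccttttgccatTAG
Srsf9-205: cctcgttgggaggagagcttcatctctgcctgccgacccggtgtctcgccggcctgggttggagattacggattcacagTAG
Srsf4-203: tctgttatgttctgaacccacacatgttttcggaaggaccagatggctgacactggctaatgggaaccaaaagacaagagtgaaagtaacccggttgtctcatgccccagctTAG
Srsf7-203: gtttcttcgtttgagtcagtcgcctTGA
Srsf11-206: ttcttttccctggttcagccTGA
The Srsf3 sequence lies at chr17:29039454-29039487 on the plus strand, in exon 4 of the transcript, an exon of 456 bases. The Srsf6 sequence lies at chr2:162932815-162932966 on the plus strand, in exon 3, of 268 bases. The Srsf9 sequence lies at chr5:115328347-115328428 on the plus strand, in exon 2, of 358 bases. The Srsf4 sequence lies at chr4:131884276-131884390 on the plus strand, in exon 2, of 207 bases. The Srsf7 sequence lies at chr17:80205054-80205081 on the minus strand, in exon 4, of 460 bases. The Srsf11 sequence lies at chr3:158024209-158024231 on the minus strand, in exon 4, of 109 bases. In each of the 6 transcripts the stop codon lies within the exon that is skipped in the coding form, and in Srsf3, Srsf7 and Srsf11 it comes within 34, 28 and 23 bases of the exon's start.

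The skipped form is set beside them for the 3 genes in which the poison-exon transcript was most abundant. Each line is the junction of the leading coding transcript, with the 15 bases before it in lower case and the 15 bases after it in capitals.
Srsf3-202: tccacctcggcgcagATCCCCAAGAAGGAG
Srsf6-203: gctacggaagccgcaGTGGTGGAGGTGGAT
Srsf9-201: cttcgaggacccgcgAGATGCTGAGGATGC
These lines join exons 3 and 4 of Srsf3-202, exons 2 and 3 of Srsf6-203 and exons 1 and 2 of Srsf9-201. The intron between them, in which the poison exon sits, runs from the base after 29038624 to the base before 29040775 on chromosome 17 for Srsf3. It runs between 162932142 and 162933426 on chromosome 2 for Srsf6, and between 115327499 and 115330498 on chromosome 5 for Srsf9.

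On mm10, Srsf1 (ENSMUSG00000018379.17) spans chr11:88047373-88053755 on the plus strand and Srsf2 (ENSMUSG00000034120.18) chr11:116849901-116853094 on the minus strand. Srsf3 (ENSMUSG00000071172.13) spans chr17:29032628-29043373 on the plus strand and Srsf7 (ENSMUSG00000024097.11) chr17:80200080-80207307 on the minus strand. Srsf4 (ENSMUSG00000028911.16) spans chr4:131873617-131901706 and Srsf10 (ENSMUSG00000028676.17) chr4:135855747-135869908, both on the plus strand. Srsf5 (ENSMUSG00000021134.17) spans chr12:80945504-80950507, Srsf6 (ENSMUSG00000016921.14) chr2:162931528-162937121 and Srsf9 (ENSMUSG00000029538.14) chr5:115327177-115333080, all on the plus strand. Srsf11 (ENSMUSG00000055436.18) spans chr3:158010473-158036639 on the minus strand.

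The tables made from reads held 35373794 estimated counts in replicate 1 and 41232338 in replicate 2. SR genes took 29529 counts (0.0835%) of the one and 30226 (0.0733%) of the other. Of 16 marker genes of hippocampal neurons, glia and endothelium, 16 were at 1 TPM or more in both libraries, the lowest being C1qa, a microglial complement gene, at 31.7 TPM, so the RNA is of mixed cell types. In such bulk RNA, fewer cells of a type and less RNA per cell cannot be told apart. Levels are in TPM, a unit per transcript length that is scaled to the library total, and a gene's level is the sum over its transcripts. Values are given for replicates 1 and 2 in that order, or as mean ± SD (n = 2).

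All 10 SR genes were detected at 48.1 TPM or more in both libraries. The summed level of the 10 was 1009.8 TPM in replicate 1 and 858 TPM in replicate 2. Srsf5, which encodes SRp40, stood highest at 238 and 171 TPM. Srsf11, whose product promotes inclusion of neuronal microexons, followed at 141 and 108 TPM, and Srsf1, the founding member of the family, at 127 and 115 TPM. The values of Srsf11 and Srsf1 overlapped between the libraries, whereas Srsf5 lay above both in each library. Srsf2 (SC35), a protein of nuclear speckles, was at 112 and 101 TPM. Srsf3, the smallest SR protein and an mRNA export adaptor, was at 76.4 and 80.6 TPM, and Srsf6 (SRp55) was at 73.5 and 60.7 TPM. These 3 did not overlap with each other or with Srsf1. Srsf7, a zinc-knuckle SR protein and export adaptor, stood at 64.4 and 62.5 TPM. Srsf9 (SRp30c) stood at 63.1 and 56.0 TPM, and Srsf10, which acts as a splicing repressor when dephosphorylated, at 60.9 and 55.4 TPM. From Srsf6 down to Srsf10 each gene overlapped with the next, so their order is not resolved by 2 libraries. Srsf4 (SRp75) was lowest, at 54.0 and 48.1 TPM, below both values of Srsf10. This order is that of the table made from reads. In the second deposited table, made from transcriptome alignments, Srsf11 was at 75.3 and 51.8 TPM, below Srsf1 at 88.8 and 77.4 TPM. Srsf5 was highest there too, at 142 and 97.4 TPM.

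**Figure D1:**
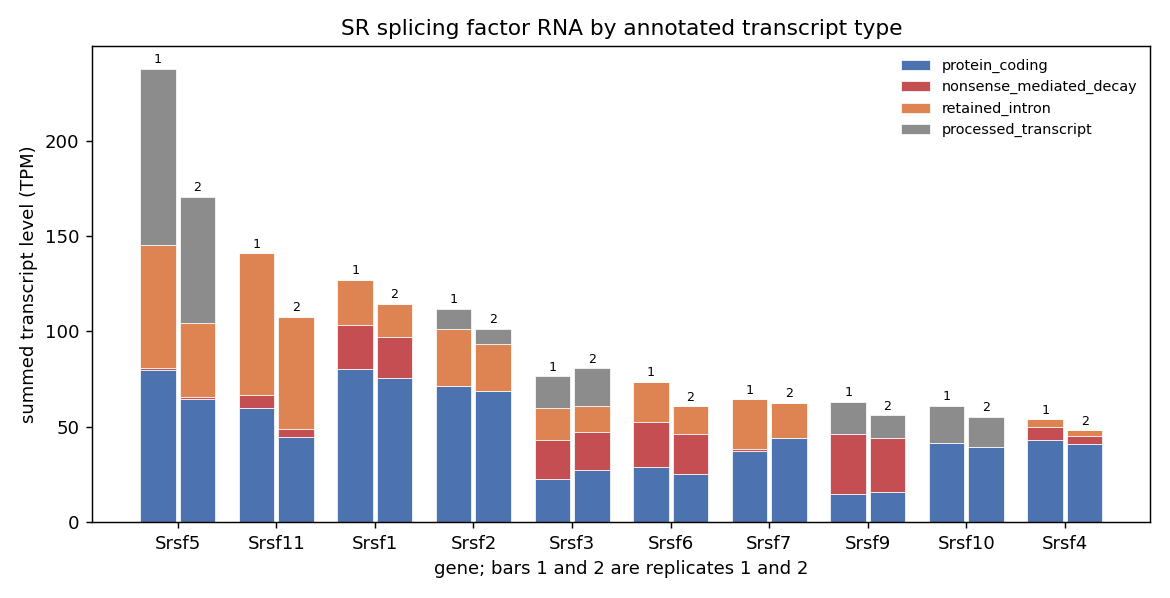
Stacked bars give the summed TPM of each SR gene in replicates 1 and 2, split by annotated transcript type, with genes ordered by mean level. Srsf5 is highest at 238 and 171 TPM, and in Srsf5, Srsf11, Srsf3, Srsf6 and Srsf9 the protein_coding block is the smaller part of the bar in both libraries.

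Much of the RNA of these genes lay in transcripts not annotated as coding. The mean noncoding-typed share of gene TPM was 74.3 ± 3.1% for Srsf9, 68.1 ± 3.14% for Srsf3, 64.2 ± 3.03% for Srsf5, 59.4 ± 1.5% for Srsf6 and 58.0 ± 0.944% for Srsf11. It was 35.8 ± 8.79% for Srsf7, 35.3 ± 2.06% for Srsf1, 34.1 ± 2.81% for Srsf2, 30.2 ± 1.94% for Srsf10 and 17.0 ± 3.87% for Srsf4. The 5 genes of the higher group lay above the 5 of the lower group in both libraries. Nonsense_mediated_decay transcripts are annotated for 9 of the 10 genes and retained_intron transcripts for 8. Srsf10 has no transcript of either type, and Srsf9 none of the retained_intron type.

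To place these shares, the same value was taken for every protein-coding gene with a mean of at least 10 TPM and at least 1 coding and 1 noncoding-typed transcript, 7948 genes in all. The median share was 46.9% over the 10 SR genes and 18.0% over all 7948 genes. A share of at least 20% was found for 9 of the 10 SR genes and for 46.9% of all genes, and a share of at least 50% for 5 of the 10 and for 13.5% of all genes. Srsf9 lay above 96.4% of all genes, Srsf3 above 94.9%, Srsf5 above 93.6%, Srsf6 above 91.7% and Srsf11 above 90.9%. The lower group ran from Srsf7, above 74.9% of genes, to Srsf4, above 48.4%, so Srsf4 sat near the middle of the distribution. By type, the median nonsense_mediated_decay share was 7.45% over SR genes and 0% over all genes, and the median retained_intron share 22.1% and 5.50%. SR genes have a median of 4 noncoding-typed transcripts annotated and all genes a median of 3. Among the 6352 genes with at least 2 such transcripts, a limit chosen after the data were seen, the median share was 22.3% and 54.4% of genes reached a share of 20%. The rule that picked the members used no such share, although earlier results of these data were known. The members are a small set of related genes, and this is a description of where they lie.

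**Figure D2:**
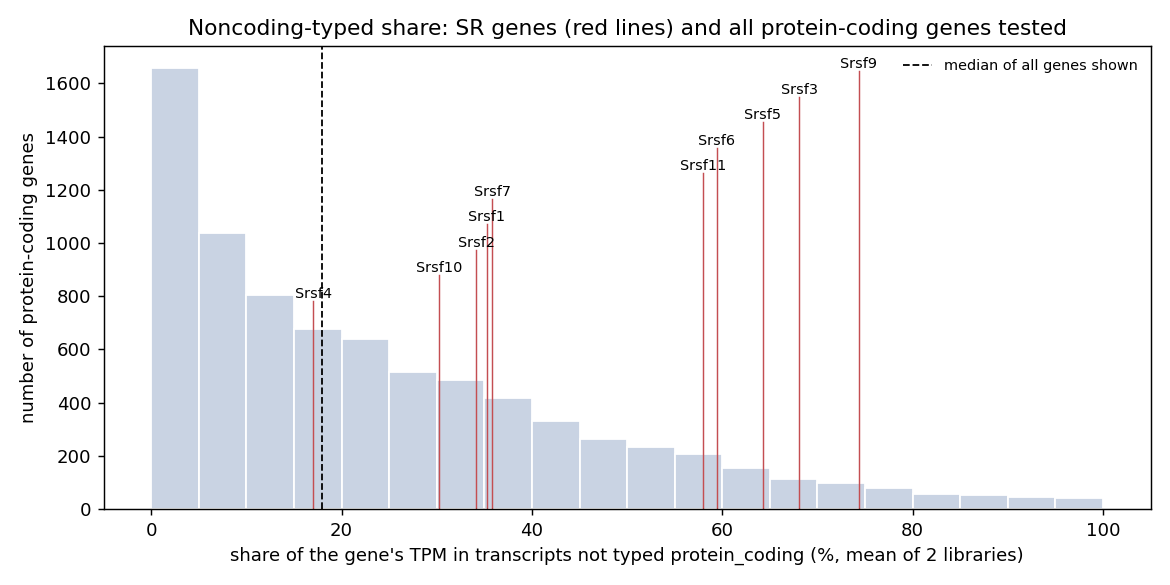
The histogram gives the number of protein-coding genes (of 7948) by the share of gene TPM in noncoding-typed transcripts, mean of 2 libraries, in bins of 5 points, and the dashed line is their median, 18.0%. Red lines mark the 10 SR genes (their heights only separate the names): 9 lie to the right of the median and Srsf4, at 17.0%, just to its left.

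Srsf9, Srsf6 and Srsf3 carried the largest nonsense_mediated_decay shares. In Srsf9 the poison-exon transcript Srsf9-205 was at 31.6 and 28.6 TPM and the coding Srsf9-201 at 14.8 and 15.6 TPM. The nonsense_mediated_decay transcript was above the coding one in both libraries and made up 50.5 ± 0.669% of the gene's TPM. Of the 31-base words of Srsf9-205, 29 of 1362 occur in no other transcript, and for Srsf6-201 28 of 1636. Their levels therefore also rest on the division of shared reads, which the SD does not cover. By TPM in this table, Srsf9 was the only SR gene whose most abundant transcript was noncoding-typed; by estimated counts, or by TPM in the second table, Srsf5 was led by a noncoding-typed transcript as well. Another Srsf9 transcript, the processed_transcript Srsf9-202, was at 16.7 and 11.9 TPM. In Srsf6 the coding Srsf6-203 was at 29.1 and 25.3 TPM, the poison-exon transcript Srsf6-201 at 23.4 and 21.2 TPM, and the retained_intron transcript Srsf6-204 at 21.03 and 14.2 TPM. The nonsense_mediated_decay share was 31.9% and 34.9%, and the coding form was the highest of the 3 in each library. Srsf6-204 keeps intron 2 of the coding transcript whole (1283 bases), which is the intron that holds the poison exon.

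In Srsf3 the coding Srsf3-202 was at 22.7 and 27.5 TPM and the poison-exon transcript Srsf3-201 at 20.4 and 19.9 TPM. The difference between the 2 forms was small in replicate 1 and larger in replicate 2, and the nonsense_mediated_decay share was 26.7% and 24.6%. The short processed_transcript Srsf3-207, of 594 bases, was at 10.3 and 17.0 TPM. The retained_intron transcript Srsf3-204, which keeps a pair of adjacent introns, 2543 bases in all, was at 9.17 and 7.0 TPM. The type shares of Srsf3 depend on the quantification. In the second deposited table, made from transcriptome alignments, the nonsense_mediated_decay share was 15.3 ± 0.445% against 25.7 ± 1.46%, and Srsf3-207 was at 0 TPM in both libraries. Srsf3-201 has no 31-base word that no other transcript holds. Of the 31-base words of Srsf3, 10.03% also occur in Gm12355 and 5.04% in Gm9761, which were listed at 7.33 and 7.76 TPM and at 31.3 and 35.1 TPM. In the second table these copies were at 4.66 and 5.03 TPM and at 12.5 and 12.7 TPM, and how reads were divided between Srsf3 and its copies is uncertain.

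In Srsf1 and Srsf4 the same type took a smaller share of the gene in this table, although the level in Srsf1 was like that in Srsf6 and Srsf3. Srsf1 was led by the coding Srsf1-201, at 38.1 and 33.8 TPM, with the coding Srsf1-205 at 26.2 and 24.4 TPM and Srsf1-202 at 16.1 and 17.6 TPM. Its nonsense_mediated_decay transcript Srsf1-204 was at 23.2 and 21.1 TPM, 18.4 ± 0.0873% of the gene. Its retained_intron transcript Srsf1-206 was at 19.6 and 12.7 TPM, and the retained_intron share was 16.9 ± 2.15% in this table and 27.0 ± 1.44% in the second. In the second table the nonsense_mediated_decay share was 15.6 ± 0.267% in Srsf1 and 15.3 ± 0.445% in Srsf3. In the table made from reads, that of Srsf1 was the steadiest between libraries among those above 10%. Of the 31-base words of Srsf1-204, 27 of 866 occur in no other transcript, so its level also rests on the division of shared reads. The TPM and the counts of Srsf1 tell different amounts: the noncoding-typed share was 35.3 ± 2.06% of TPM and 7.42 ± 0.294% of estimated counts. The coding Srsf1-205 and Srsf1-201 are 5362 and 2948 bases long and Srsf1-204 and Srsf1-206 are 896 and 645 bases, so a molecule of the shorter ones yields fewer counts. Srsf4 was mostly coding. Srsf4-202 was at 43.3 and 41.2 TPM, 83.0 ± 3.87% of the gene. The poison-exon transcripts Srsf4-204 and Srsf4-203 were at 3.81 and 2.02 TPM and at 2.79 and 2.10 TPM, and the retained_intron transcript Srsf4-201 at 4.07 and 2.75 TPM. All 3 were lower in replicate 2, and each was far below the coding form in both libraries. A gene of unproven status on the same strand, A930004J17Rik, overlaps Srsf4 and was at 4.35 and 2.89 TPM.

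Transcripts typed retained_intron made up most of the noncoding-typed RNA of Srsf11, Srsf7 and Srsf2. In Srsf11, the retained_intron share was 52.6% and 54.4%, the highest of the family, and it was spread over many transcripts. Srsf11-208 was at 24.9 and 13.2 TPM, Srsf11-203 at 17.2 and 9.84 TPM and Srsf11-211 at 13.1 and 15.4 TPM. The coding Srsf11-202 was above each of them, at 32.5 and 25.3 TPM. As annotated, no retained_intron transcript of Srsf11 keeps a whole intron of Srsf11-202. Srsf11-208, Srsf11-203 and Srsf11-211 hold 1988, 887 and 72 bases inside introns of Srsf11-202. The short coding-typed Srsf11-209, of 769 bases, was at 18.8 and 12.3 TPM here and at 0 TPM in the second table. The poison-exon transcript Srsf11-206 was at 6.69 and 4.56 TPM, 4.49 ± 0.366% of the gene, and at 0.94 and 0.77 TPM in the second table.

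In Srsf2 the coding Srsf2-201 was at 66.4 and 62.7 TPM and the retained_intron transcript Srsf2-203 at 30.03 and 24.8 TPM. Srsf2-203 keeps intron 2 of the coding form whole (1059 bases), and it held 25.6 ± 1.68% of the gene's TPM. The short processed_transcript Srsf2-205 was at 10.4 and 7.80 TPM here and at 0 TPM in the second table. The nonsense_mediated_decay transcripts of Srsf2 were at essentially 0, their share being 1.5e-05% of TPM. The coding-typed Srsf2-206 was at 5.02 and 6.08 TPM. Its stop lies 217 bases before the last junction, as in the nonsense_mediated_decay transcript Srsf2-202. Neither Srsf2-206 nor Srsf2-202 has a 31-base word of its own, so how reads were divided between them is uncertain. On the opposite strand Srsf2 overlaps Mettl23 over 3194 bases and Mfsd11 over 655 bases, which were at 23.5 and 26.1 TPM and at 27.0 and 24.7 TPM. The labels describe the libraries as stranded, and whether the quantification used the strand is not given in the sources used here.

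Srsf7 divided its RNA among transcripts that resemble each other closely. The coding Srsf7-202 was at 31.1 and 31.9 TPM and the retained_intron Srsf7-207 at 15.4 and 11.9 TPM. A second retained_intron transcript, Srsf7-206, was at 5.05 and 3.02 TPM, and both keep intron 3 whole (874 bases). In the second table these were assigned otherwise: Srsf7-202 was at 0.80 and 0.92 TPM and the coding Srsf7-201 at 16.9 and 17.2 TPM, with Srsf7-206 at 12.2 and 9.03 TPM and Srsf7-207 at 0.13 and 0 TPM. The retained_intron share was 35.0 ± 8.28% in the first table and 24.3 ± 5.07% in the second. Srsf7-206 and Srsf7-207 have no 31-base word of their own, so the intron 3 RNA of the gene is better grounded than its split between them. The poison-exon transcript Srsf7-203 was low, at 0.80 and 0.32 TPM, 0.879 ± 0.513% of the gene.

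By TPM, Srsf5 and Srsf10 held most of their noncoding-typed RNA as processed_transcript, a type without a coding sequence or a named mechanism. By estimated counts the leading noncoding type of Srsf5 was retained_intron, at 50.4 ± 5.18% of the gene, with processed_transcript at 12.9 ± 1.26%, against 24.8 ± 3.0% and 38.9 ± 0.111% by TPM. In Srsf5, the coding Srsf5-205 was at 68.5 and 54.9 TPM and the retained_intron Srsf5-212 at 57.0 and 34.9 TPM. The processed_transcripts Srsf5-206 and Srsf5-211 were at 47.1 and 41.7 TPM and at 43.7 and 24.0 TPM. In this table the coding form was the highest in both libraries, and in replicate 1 the 4 lay between 43.7 and 68.5 TPM. In the second table Srsf5-205 was at 25.1 and 20.03 TPM. It lay below Srsf5-206 at 46.6 and 32.7 TPM and Srsf5-212 at 35.5 and 21.7 TPM. Srsf5-205, Srsf5-212 and Srsf5-211 have no 31-base word of their own, so how reads were divided among them is uncertain. Srsf5-212 keeps intron 5 whole (1229 bases), and by estimated counts it was the leading transcript of the gene. The highest nonsense_mediated_decay transcript of Srsf5, Srsf5-208, was at 0.98 and 0.91 TPM. Srsf5-211 was at 8.81 and 3.43 TPM in the second table, in which Srsf5-206 led. Of the 31-base words of Srsf5, 13.1% also occur in Gm12966, which was at 0 TPM here and at 8.08 and 5.57 TPM in the second table.

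Srsf10 was led by the coding Srsf10-204, at 19.1 and 16.1 TPM. The coding Srsf10-205 was at 8.74 and 8.66 TPM, Srsf10-203 at 6.82 and 9.16 TPM and Srsf10-202 at 6.98 and 5.51 TPM. Of its noncoding-typed transcripts Srsf10-207 was highest, at 7.41 and 7.43 TPM. The noncoding-typed share was 30.2 ± 1.94% of TPM and 9.56 ± 3.21% of estimated counts. Srsf10-207 is 717 bases long and Srsf10-204 is 3058 bases.

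The annotated structures are described by type for the transcripts that were measured at 0.5 TPM or more, which are 68 of the 85. Types and structures come from the same annotation, so this describes the types and cannot check them. All 9 nonsense_mediated_decay transcripts above that level have a stop codon more than 50 bases before their last junction, compared with 1 of the 23 protein_coding transcripts that have an annotated stop. Of these 9, 7 hold an exon that lies inside an intron of the gene's leading coding transcript. Of the 23 retained_intron transcripts above that level, 22 have bases inside introns of the leading coding transcript and 8 keep at least 1 whole intron, the kept bases running from 874 to 2543 with a median of 1256. The median length of these 68 transcripts was 2225 bases for coding, 1898 for retained_intron, 980 for nonsense_mediated_decay and 594 for processed_transcript. Of the 68 transcripts, 16 have no 31-base word of their own, so their levels rest on the quantifier's division of shared reads. A further 13 of the 85, the nonsense_mediated_decay transcripts of Srsf2 among them, had under 0.5 counts in both libraries.

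The 2 deposited quantifications gave similar medians over the SR genes and different shares by type within many of them. In the table made from alignments the median noncoding-typed share over SR genes was 48.3%, against 14.5% over 6613 genes, and 9 of the 10 again had a share of at least 20%, compared with 39.6% of those genes. The most abundant transcript was the same for 8 of the 10 genes, the exceptions being Srsf5 and Srsf7. The total noncoding-typed share was 65.4 ± 0.415% for Srsf9, 53.9 ± 6.6% for Srsf3, 65.0 ± 4.12% for Srsf5, 54.4 ± 1.14% for Srsf6 and 67.7 ± 1.91% for Srsf11. These 5 genes stood above the other 5 in this table too, of which Srsf1 was highest at 42.6 ± 1.18%. The largest disagreement by type was the processed_transcript share of Srsf9, at 23.8 ± 3.76% and 8.05 ± 1.58%. The retained_intron share also differed in Srsf1, Srsf7 and Srsf11, in the last at 53.5 ± 1.31% and 63.7 ± 3.15%. So did the nonsense_mediated_decay share of Srsf3 and the processed_transcript share of Srsf2.

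**Figure D3:**
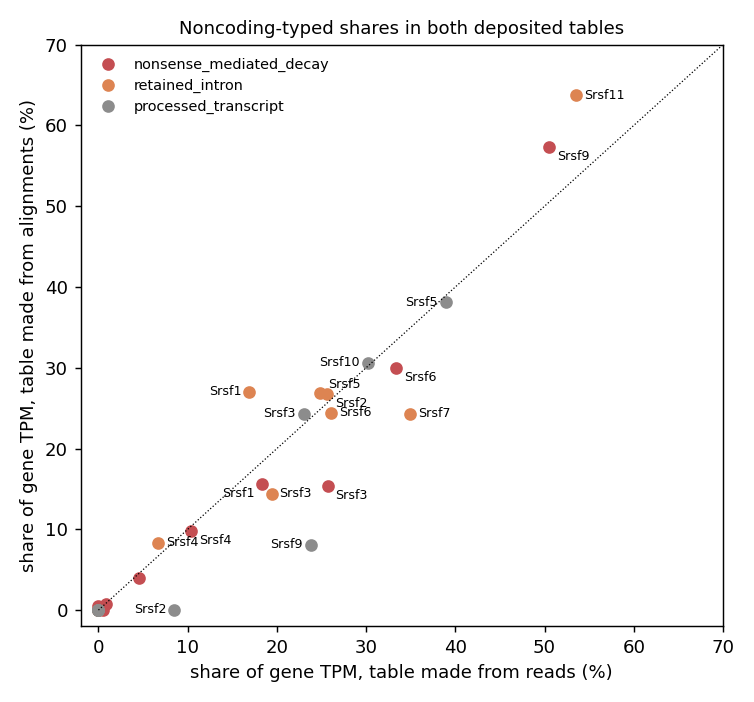
Each point is the share of a gene's TPM in 1 noncoding type, mean of 2 libraries, in the table made from reads (horizontal axis, %) and in the table made from alignments (vertical axis, %), and the dotted line marks equal shares. Srsf9 nonsense_mediated_decay (50.5% and 57.3%) and Srsf11 retained_intron (53.5% and 63.7%) are highest in both tables, while Srsf9 processed_transcript (23.8% and 8.05%) lies far below the line.

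Measured as TPM, SR gene RNA was lower in replicate 2 than in replicate 1, and the difference was larger in the noncoding-typed part. Of the 10 genes 9 were lower in replicate 2, Srsf3 being the exception, against 54.5% of the 9581 protein-coding genes with a mean of at least 10 TPM. None of the 10 was at least 1.5-fold lower, a size reached by 1.02% of those genes, and none was at least 1.5-fold higher, as 0.376% were. In the second table Srsf3 was lower in replicate 2 as well, at 55.9 and 50.7 TPM. Summed over the 10 genes, noncoding-typed transcripts were at 529 TPM in replicate 1 and 411 TPM in replicate 2, a ratio of 0.776 (95% counting interval 0.756 to 0.797). Protein_coding transcripts were at 481 and 447 TPM, a ratio of 0.929 (0.911 to 0.949). The 2 intervals do not overlap, but they cover only the counting error of summed estimated counts. Short transcripts weigh more in TPM than in counts, so the intervals may be too narrow for a TPM ratio. They also leave out the division of shared reads. Retained_intron RNA went from 259.8 to 189 TPM (ratio 0.726, 0.703 to 0.750), nonsense_mediated_decay RNA from 114 to 101 TPM (0.885, 0.837 to 0.936) and processed_transcript RNA from 156 to 122 TPM (0.781, 0.720 to 0.847). With 1 library against 1, these ratios compare the libraries and have no replicate check.

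Gene by gene, noncoding-typed RNA was lower in replicate 2 in 10 of 10, against 69.3% of the 7948 genes, and coding RNA in 7 of 10, against 47.2%. The noncoding-typed share was lower in replicate 2 for 9 of 10 and for 68.2% of all genes, with a median difference of -4.13 percentage points over SR genes and -1.77 over all. The exception was Srsf11, in which the coding level went from 60.1 to 44.6 TPM and the noncoding-typed level from 80.8 to 63.3 TPM. The widest gap was in Srsf7, whose coding level was 37.3 and 44.0 TPM and whose noncoding-typed level was 27.1 and 18.5 TPM. In Srsf3 the coding level was 22.7 and 27.5 TPM while the noncoding-typed level was nearly level at 53.7 and 53.1 TPM. In the second table the share was also lower in replicate 2 for 9 of 10, with Srsf9 as the exception in place of Srsf11. The value over all genes was not taken in that table, so this count has no comparison.

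**Figure D4:**
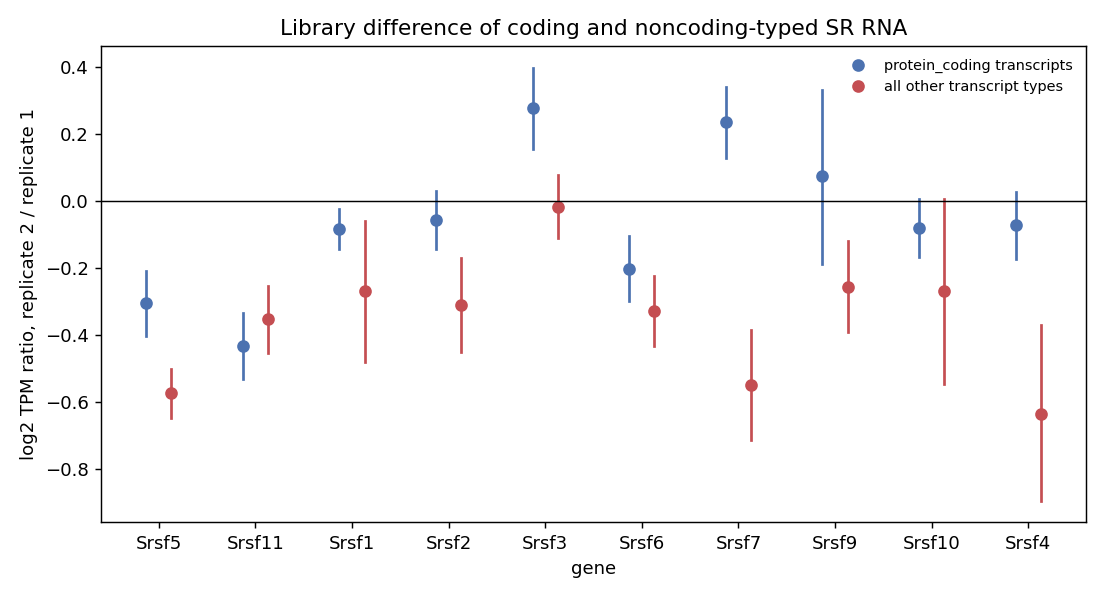
Points give the log2 ratio of TPM in replicate 2 to replicate 1 for each SR gene. Protein_coding RNA is blue and noncoding-typed RNA is red, and bars are 95% intervals that cover counting error in summed counts only. The red point is under the blue one in 9 of 10 genes, and over all 10 genes the summed log2 ratios are -0.37 for noncoding-typed and -0.11 for protein_coding RNA.

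The SR transcripts were set beside those of the same types from other genes. Among transcripts with at least 50 estimated counts over both libraries, 10 of 21 SR retained_intron transcripts were at least 1.5-fold lower in replicate 2, compared with 46.8% of 7882 such transcripts of protein-coding genes. The median log2 ratio was -0.57 for the SR ones and -0.55 for all. For nonsense_mediated_decay transcripts the count was 1 of 6, compared with 27.3%, with medians of -0.14 and -0.15. For processed_transcripts it was 2 of 6, compared with 29.7%, with medians of -0.34 and -0.23. For protein_coding transcripts it was 2 of 24, compared with 13.1%, with medians of -0.08 and -0.02. Over all noncoding types it was 13 of 33, compared with 39.4%. Of the 57 SR transcripts compared, 15 were at least 1.5-fold lower, compared with 24.0% of all 42805 transcripts of any gene, and 2 at least 1.5-fold higher, compared with 8.29%. The median log2 ratio was -0.25 over the SR ones and -0.12 over all. The 2 higher ones were the processed_transcript Srsf3-207 at 1.65-fold and the coding Srsf7-208 at 7.06-fold. Among all protein-coding genes, 7.08% of noncoding-typed, 10.1% of processed_transcript and 9.59% of protein_coding transcripts were that much higher. No SR transcript of the nonsense_mediated_decay or retained_intron type was, compared with 12.9% and 4.19% of all. Srsf7-208 was at 0.62 and 4.4 TPM here and at 14.4 and 15.3 TPM in the second table, where no such difference appears.

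The 5 genes of a list of nuclear long noncoding RNAs moved in the same direction. Malat1, a nuclear speckle RNA, was at 4167 and 2371 TPM, and Meg3 was at 1016 and 590.3 TPM. Neat1, on which paraspeckles are built, was at 27.7 and 17.04 TPM. Miat was at 150.4 and 102 TPM and Snhg11 at 318 and 198 TPM. Snhg11 is a protein-coding gene in this annotation, with a noncoding-typed share of only 9.28 ± 1.81%. All 5 were lower in replicate 2, compared with 54.5% of protein-coding genes with a mean of at least 10 TPM. The median log2 ratio of the 5 was -0.70, while the median over those protein-coding genes was -0.02. No value over other long noncoding RNA genes is given. The part of nuclear RNA content in the SR gene difference was not tested.

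**Figure D5:**
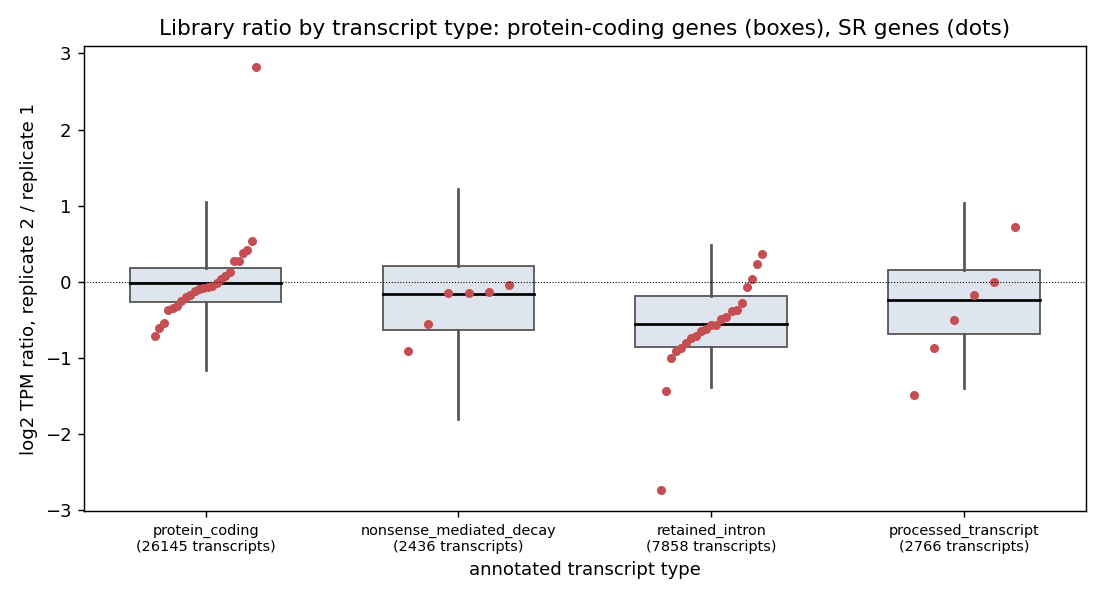
Boxes give the quartiles, and whiskers the 5% and 95% points, of the log2 TPM ratio of replicate 2 to replicate 1 for transcripts of all protein-coding genes by type, leaving out transcripts at 0 in a library, and red dots are SR transcripts. The retained_intron box sits lowest, and the SR dots of that type have a median of -0.57.

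Genes that act on SR proteins, or with them, were read from lists of the pathway. Of the kinases and phosphatases, which set the phosphorylation of the arginine-serine domain, 9 of 10 genes could be compared. Their median noncoding-typed share was 35.7%, and 7 of the 9 had a share of at least 20%, against 46.9% of all genes. Ppp1ca, a catalytic subunit of protein phosphatase 1, was highest at 157 and 198 TPM, followed by the SR protein kinase Srpk2 at 137 and 137 TPM. The nuclear kinases Clk1 and Clk4 had the highest shares, 81.3 ± 11.1% and 76.3 ± 0.493%. Clk1 was at 77.2 and 63.5 TPM in all, and Clk4 at 101 and 84.6 TPM. All 3 import receptors could be compared, with a median share of 24.0% and 2 of 3 at 20% or more. Kpnb1 was at 99.3 and 100.5 TPM and Tnpo3, the transportin that carries phosphorylated SR proteins, at 43.6 and 40.6 TPM. Tnpo3 had a share of 24.0 ± 6.94%, and Kpnb1 of 29.6 ± 0.455%.

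The factors of nonsense-mediated decay, among them exon junction complex proteins, had a median share of 22.2% over 13 genes. Of these 13 genes 7 reached 20%, against 46.9% of all genes. Eif4a3, the helicase core of the exon junction complex, was highest at 69.4 and 60.5 TPM. Magohb and Rbm8a, also of that complex, had the highest shares, 83.6 ± 14.5% and 67.3 ± 3.45%. SR-related splicing proteins had a median share of 36.2% over 20 genes, of which 15 reached 20%. Snrnp70, a protein of the U1 particle, was at 410.2 and 288 TPM, and Srrm2, a large speckle protein, at 349 and 244 TPM. Tra2a, a splicing activator with a poison exon of its own, had a share of 62.3 ± 15.4%, and Acin1 of 53.4 ± 1.62%. Of the SR-related genes 20 of 21 were lower in replicate 2, with a median log2 ratio of -0.25, compared with 54.5% of all genes and a median of -0.02. The same count was 8 of 10 for the kinases and phosphatases (median -0.10), 2 of 3 for the import receptors (-0.06) and 11 of 15 for the decay factors (-0.13).

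Many products of the hnRNP genes act against SR proteins at splice sites. The hnRNP genes had a median share of 26.7% over 21 genes, of which 15 reached 20%, against 46.9% of all genes. Hnrnpk was at 475 TPM in both libraries and Pcbp2 at 331 and 356 TPM. In replicate 2, 15 of 26 hnRNP genes were lower, compared with 54.5% of all genes. Their median log2 ratio was -0.07, compared with -0.02 over all genes. Hnrnpu had a share of 78.7 ± 0.485% and Hnrnpll of 58.5 ± 0.118%. The SR gene median of 46.9% was above the medians of all 5 lists, as a description of these genes. The mix of types of other genes was set beside the SR gene medians of 4 type shares, averaged over 2 libraries. These medians were taken separately for each type and do not add to a whole, so no gene can match them exactly. The nearest genes by distance were Lcorl, Trim39, Srrm1, Med21 and Dolpp1. Srrm1, which is itself SR-related, was at 90.6 and 68.2 TPM, and its coding, nonsense_mediated_decay and retained_intron shares were 56.1%, 8.00% and 27.9%.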

How the data were processed

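Ribosomal-RNA-reduced total RNA libraries with spike-ins were sequenced from 2 samples of 1 group. Per the labels the reference was mm10, and per the deposited notes the gene models were GENCODE M21. Which aligner and quantifier the authors ran is not given in the sources used here. The main transcript tables, in the kallisto column format, hold estimated counts and TPM that the authors made from reads, per the deposited notes. The second tables, in the RSEM column format, hold expected counts and TPM that, per those deposited notes, the authors derived from alignments to the transcriptome. Only annotated transcripts are in them.

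Gene level was the sum of transcript TPM, used as deposited. Shares were taken per library, with mean and SD (n = 2). Library ratios used transcripts with at least 50 estimated counts over both libraries, a floor of 3 counts per library and a 1.5-fold threshold. Intervals are exact Clopper-Pearson 95% intervals on summed estimated counts, scaled to the TPM ratio, and cover counting error in those counts only. They do not carry the heavier weight of short transcripts in TPM or the division of shared reads. Depth was 35373794 and 41232338 estimated counts, of which spike-ins took 0.268% and 0.310%. With 1 group, no test was made and no p-values are given. Sequences, types and structures come from the GENCODE M21 transcripts and annotation. Ratio calls and shares were tested on simulated counts already assigned to transcripts, so that test could not show errors in the division of shared reads.

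The members, lists and comparisons were chosen with earlier results of these data known. The text names all 10 members, their transcripts with at least 10% of gene TPM, the highest nonsense_mediated_decay and retained_intron transcript of each, 2 genes per list by level and 2 by share, and the 5 genes nearest in composition, although 1 gene that this rule names is not reported here; other transcripts were chosen after their values were seen. Alternatives were the second tables, shares of estimated counts, other thresholds, 3 types only, other scalings and each library alone. Figures were drawn with matplotlib 3.10.9 and intervals computed with scipy 1.17.1, under Python 3.11.15 with numpy 2.4.6 and pandas 2.3.3.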

Additional observations from a re-analysis of the deposited data

How the results depend on the processing

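The noncoding-typed share of the summed SR gene TPM was 50.2%, and from 47.9% to 52.4% with either library left out; the median over genes was 46.9%, and from 46.1% to 49.7%. As a share of estimated counts these were 37.6% and 37.6%, and with processed_transcript left out 41.5% and 38.6%. The number of genes with a share of at least 20% was 9, and 7 by counts or 8 with processed_transcript left out. No value over all genes is given for either of these settings, so they do not show where SR genes lie among all genes. The summed level, 934 TPM, was 579.8 TPM in the second table and 1266 TPM when rescaled over nuclear protein-coding genes, and from 858 to 1009.8 TPM with either library left out. The log2 library ratio of noncoding-typed RNA, -0.37, was -0.48 in the second table, -0.61 per spike-in count and -0.40 per total count. That of coding RNA, -0.11, was -0.15, -0.27 and -0.057. Per spike-in count the median of all protein-coding genes was -0.17. The cause of these shifts was not tested. Neither summed ratio reversed under any of these settings. For single genes in the second table, the ratio of Srsf3 turned from 1.05 to 0.907 and that of Srsf9 coding RNA from 1.05 to 0.843, and the side of the share difference turned in Srsf9 and Srsf11. Of the 10 single-gene shares, 7 moved by more than 1 SD in the second table, 7 by counts and 5 with processed_transcript left out.

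A library ratio needs both libraries, so it has no value with either left out. No paired analysis was possible because there is a single group. The background of genes with at least 2 noncoding-typed transcripts was added after seeing the data. With 2 libraries that share a donor entry, it is not known whether the SDs include the spread between animals, and transcript levels rest on how each quantifier divided shared reads.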
